A study of Mus musculus with 22 samples.

Results

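The Obox genes (oocyte-specific homeobox) were followed through 6 coding members: Obox1, Obox2, Obox3, Obox5, Obox6 and Obox7. They were chosen by name from the coding genes with an Obox symbol in both deposited tables, without the -ps pseudogenes, and they are 6 of 55487 listed genes. Obox8, a further coding gene in both tables, is not among the chosen names. RNA was measured by sequencing in mouse embryonic stem cells. All groups shared a Dux-/- background, growth in 2iLIF medium and doxycycline at 0.25 ug/mL for 12 hours after 24 hours of recovery, and each carried an mCherry-tagged transgene. The groups were full-length Dux (FL), the derivatives C3+14, C1C3a, C1C3b, C1C3c, C1+14, C12345delt14, deltC12345+14 and deltC12345delt14, and mCherry alone, with 2 libraries each. The labels do not spell out what the letters and numbers of the derivatives stand for, nor whether a line is 1 clone, and the transgene was overexpressed rather than the cells' own gene.

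OBOX proteins are homeodomain transcription factors of the oocyte and the early embryo. RNA of Obox1, Obox2, Obox5 and Obox7 is known to be supplied by the oocyte, Obox3 is known as a gene switched on in the embryo at genome activation, and Obox6 is known from cleavage and blastocyst stages and from reprogramming of somatic cells. DUX is a double-homeodomain factor that activates genes of the 2-cell stage when it is expressed in embryonic stem cells.

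The 6 genes lie on chromosome 7 (GRCm38, GENCODE M21) within 1180.2 kb, from 14659496 to 15839678. Obox7 (ENSMUSG00000055942, chr7:14659496-14665996, + strand) stands at 1 end, and Obox6 (ENSMUSG00000041583, chr7:15833241-15839678, − strand) at the other. Between them lie Obox2 (ENSMUSG00000074369, chr7:15388721-15398545, + strand), Obox1 (ENSMUSG00000054310, chr7:15388948-15556866, + strand), Obox3 (ENSMUSG00000066772, chr7:15479825-15639902, − strand) and Obox5 (ENSMUSG00000074366, chr7:15750131-15759800, + strand). The annotation holds 55 Obox genes, of which 7 are coding and 48 are pseudogenes, and 42 of those pseudogenes lie in the span drawn in the map of the cluster. No other coding gene was annotated inside the span. The coding gene outside the 6 is Obox8, and its level, looked at after the fact, was at most 2 reads in a library.

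**Figure D1:**
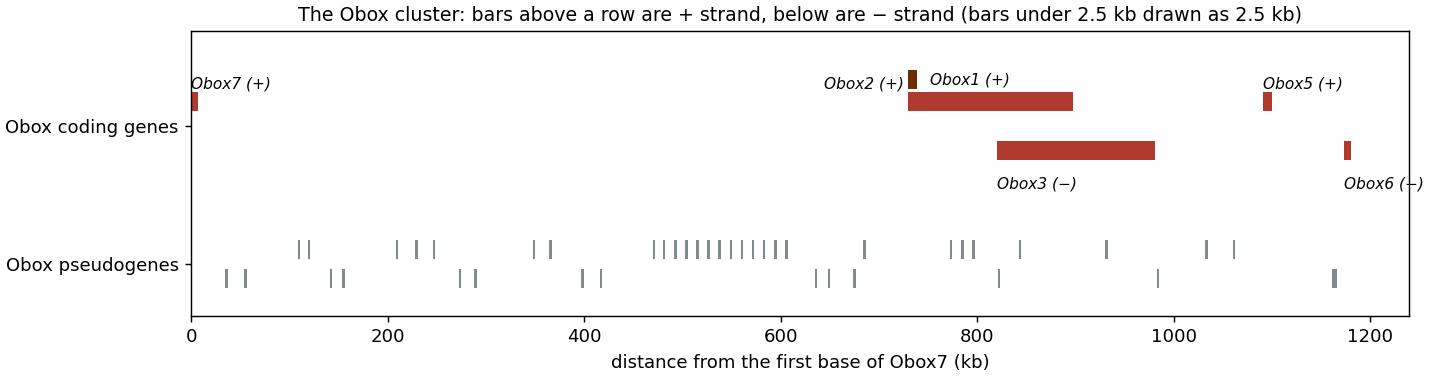
Map of the Obox cluster on chromosome 7, with the distance from the first base of Obox7 in kb on the x axis and the strand shown above or below each row. The 6 coding genes share the interval with 42 Obox pseudogenes, and the annotated spans of Obox1 and Obox2 start close together on the same strand.

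The coding sequences of the members are similar where they align, which bears on how reads can be assigned to them. The first 90 bases that align without a gap in all coding sequences are shown for all 6 genes, since they show which copies can be told apart. They are coding bases 1 to 90 of Obox1, Obox2, Obox3, Obox5 and Obox7 and bases 28 to 117 of Obox6, from the GENCODE M21 transcripts, and capitals mark bases that differ from Obox1.
Obox1: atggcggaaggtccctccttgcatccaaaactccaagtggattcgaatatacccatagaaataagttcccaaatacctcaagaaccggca
Obox2: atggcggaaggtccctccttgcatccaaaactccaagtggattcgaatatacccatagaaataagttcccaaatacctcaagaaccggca
Obox3: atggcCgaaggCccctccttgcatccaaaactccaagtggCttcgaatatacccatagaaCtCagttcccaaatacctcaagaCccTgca
Obox5: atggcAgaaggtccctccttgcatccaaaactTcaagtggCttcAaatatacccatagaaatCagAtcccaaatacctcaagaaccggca
Obox7: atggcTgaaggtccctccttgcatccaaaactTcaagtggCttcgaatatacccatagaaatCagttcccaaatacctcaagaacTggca
Obox6: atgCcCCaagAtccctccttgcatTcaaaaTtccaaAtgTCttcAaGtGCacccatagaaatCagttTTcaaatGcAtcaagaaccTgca
Obox2 had 0 differences from Obox1 in this stretch. Obox7 had 5, Obox5 had 6, Obox3 had 7 and Obox6 had 19 differences. Over all aligned coding bases, with gaps left out, Obox1 and Obox2 were 98.5% identical (449 of 456 bases). Obox6 was 76.8% to 80.4% identical to the other 5 genes, which were 93% to 98.5% identical among themselves. Coding lengths ran from 456 bases in Obox2 to 1044 in Obox6. With gaps counted, identity ran from 33.5% for Obox2 and Obox6 to 87.7% for Obox1 and Obox7, and it was 73% for Obox1 and Obox2.

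Whole exons were compared by 50-base windows, each standing for a read. Of the windows of Obox1, 57.4% also occurred in another gene, and 56.4% occurred in Obox2, with or without further genes. Of the windows of Obox2, 65.1% occurred in another gene. The share was 20.2% for Obox3, mostly with Obox3 pseudogenes (18.7%), 18.1% for Obox5 and 21.1% for Obox7. It was lowest for Obox6, at 5.02%, all of it with Obox6-ps1. Obox1 and Obox2 also overlap by 59 exon bases on the same strand. Levels of Obox1 and Obox2 are therefore uncertain as single genes, since how the authors' counting treated reads that match several genes is not given in the sources used here.

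**Figure D2:**
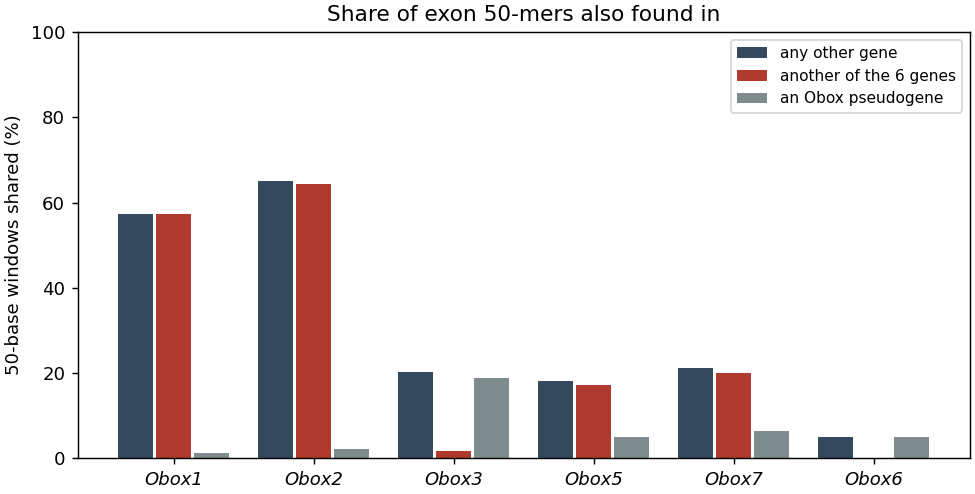
Percent of exon 50-base windows of each gene that also occur in any other gene, in another of the 6 genes, or in an Obox pseudogene. Obox1 (57.4%) and Obox2 (65.1%) share most with other genes, and Obox6 (5.02%) shares least.

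Promoter sequence from RefSeq (GRCm38.p6), 250 bases before to 50 after a start, was present for 5 of the 6 members, all but Obox6. The longest run of bases common to all 5 windows has 25 bases and is printed in capitals. It occurred in 5 of 32851 promoter windows of the genome (0.0152%), namely these. Since the run was picked from these windows, its presence in all 5 was fixed beforehand, and the counts are descriptions. The sequences run from 10 bases before that run to the base before the start site, or for Obox2, whose run lies across its start, to the end of the run.
Obox1 (chr7:15547149-15547256, + strand): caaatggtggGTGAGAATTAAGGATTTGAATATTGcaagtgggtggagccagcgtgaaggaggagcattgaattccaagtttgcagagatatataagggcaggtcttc
Obox2 (chr7:15388840-15388874, + strand): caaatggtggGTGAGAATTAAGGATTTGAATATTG
Obox3 (chr7:15639778-15639896, − strand): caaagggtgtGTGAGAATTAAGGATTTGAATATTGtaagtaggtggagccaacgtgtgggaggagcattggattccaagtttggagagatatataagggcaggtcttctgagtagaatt
Obox5 (chr7:15750250-15750369, + strand): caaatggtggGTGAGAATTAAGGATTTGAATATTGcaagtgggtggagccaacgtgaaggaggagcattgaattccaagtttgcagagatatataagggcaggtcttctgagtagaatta
Obox7 (chr7:14659614-14659707, + strand): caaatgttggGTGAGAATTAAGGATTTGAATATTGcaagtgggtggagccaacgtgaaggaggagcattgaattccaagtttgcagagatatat
The letters TATATAA, those of a TATA box, followed 79 bases after the start of the run in Obox1, Obox3, Obox5 and Obox7, which places them 19, 30, 31 and 5 bases before the start, partly past it in Obox7. They occurred on the same strand in 4 of these 5 windows and in 2.2% of all windows. In Obox2 the place 79 bases after the start of the run lies beyond the end of the window, so it was not searched. The core of the DUX double-homeodomain motif, GATTNAATC searched on both strands, was in 0 of the 5 windows and in 88 of all 32851 (0.268%). With so low a share over all windows, 0 of 5 was likely in any case, and sequence outside the windows was not searched. The windows of Obox1 and Obox2 shared 203 bases in a row and those of Obox5 and Obox7 shared 134, while other pairs shared 25 to 82. RefSeq puts the start of Obox1 well inside the GENCODE span, and which start is used in these cells was not tested.

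Values are given as normalised reads, that is, read counts divided by 1 size factor per library, and the groups stand in 2 tables that the authors scaled separately. The table called deletion here holds FL, C12345delt14, deltC12345+14 and deltC12345delt14. The chimera table holds mCherry, the same FL libraries and the remaining 5 derivatives. Library totals ran from 21059953 to 40448890 reads. Duxf3, the annotated Dux gene, had 0 reads in all libraries, so it checks neither the knockout label nor the transgene's level. Embryonic stem cell markers had a group mean of at least 10 normalised reads for 10 of 10 genes in every group. Of 8 fibroblast markers, 2 to 6 reached that mean, and Dcn was at 0 in all groups except C3+14, C1C3b and C1+14. Summed over the list, fibroblast markers had 1446.3 to 2117.2 normalised reads in FL, 932 to 988 in mCherry and 582 to 1261.6 in the other constructs of the table with mCherry. Markers of primitive endoderm had 1109.4 to 1590.4 in FL, with Sox7 at 0, 618 to 684 in mCherry and 817 to 1901.6 in those constructs. Trophectoderm markers had 245 to 408 in FL, where Hand1 was at 0, 1879.8 to 1991.9 in mCherry and 388 to 971 in those constructs. Stem cell markers summed to 74185.0 to 93951.0 in FL, 109200.9 to 111250.1 in mCherry and 49934.2 to 91009.7 in those constructs. The part of these markers in the results was not tested. Libraries also fell into 2 kinds by how many of their reads fell in 1593 high-copy genes. C3+14, mCherry, deltC12345+14 replicate 2 and deltC12345delt14 replicate 1 had 0.295% to 0.419%, and the other libraries had 1.66% to 2.58%. Of the comparisons with mCherry, only that of C3+14 was therefore between libraries of 1 kind, and for the others the construct and the kind of library cannot be told apart. The same is true of C3+14 against the other constructs of the table with mCherry.

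Cells with full-length DUX held RNA of all 6 genes, and cells with mCherry alone held RNA of 1, Obox6. In mCherry, Obox1, Obox2, Obox3, Obox5 and Obox7 were at 0 in both libraries, which allows up to 3 reads each, or 1.98 and 2.57 normalised reads. Obox6 was present in mCherry, at 17.8 and 17.2. A gene was called where limma's adjusted p was under 0.05 and the log2 fold change at least 1. All 6 members were called higher in FL than in mCherry, against 24.5% of the 21584 genes tested. All 6 passed the filter for testing (2 or more libraries with 10 or more normalised reads), but 5 did so only through the groups where they are high. This count and the later counts of members called in the same table are therefore descriptions. With 2 libraries a group, p-values measure only the spread between replicate libraries, which may be technical. That spread was estimated per gene over all groups of a table, including groups where a gene was at 0 in both libraries. For the 5 genes at 0 in mCherry, standard errors for groups with reads may therefore be too small, and p-values too low. In bulk RNA more expressing cells and more RNA per cell cannot be told apart.

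Obox3, the gene known for its onset in the embryo, had the highest normalised level of the 6 in FL, at 206 and 374. That was at least 127-fold above mCherry, and both FL libraries lay above all libraries of the other constructs of the chimera table except C1C3a replicate 2, at 212. Obox3 stood at 136 and 141 in C3+14 and at 111 and 212 in C1C3a. In C1C3b it fell to 2.63 and 4.69 normalised reads, from 3 and 5 reads. It was at 0 in both libraries of C1C3c and of C1+14. limma gave a log2 fold change of 8.12 ± 0.50 (SE, adjusted p = 1.86e-08) for FL against mCherry and of -5.94 ± 0.50 (adjusted p = 6.91e-07) for C1C3b against FL. Because 1 was added before taking log2, fold changes understate low genes, and those against a group at 0 depend on that 1 and are no bound.

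Obox1 was at 118 and 132 in FL, at 151 and 147 in C3+14 and at 95.2 and 150 in C1C3a. These 3 groups were high and the remaining groups low, with 0 and 1.88 in C1C3b (2 reads) and 0 in C1C3c and C1+14. The level in FL was at least 54.9-fold that of mCherry (log2 fold change 6.97 ± 0.55, limma adjusted p = 1.94e-07). Obox2, which shares most of its exon sequence with Obox1, stood at 102 and 46.4 in FL, 65.3 and 47 in C3+14 and 38.7 and 116 in C1C3a. Its replicates differed 2.19-fold in FL and 3-fold in C1C3a, so the 3 groups overlapped. In C1C3b it had 1.75 and 0 (2 reads in all), and FL was at least 32.5-fold above mCherry.

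Obox5 and Obox7, which share 134 promoter bases in a row, were the lowest members. Obox5 was at 22.1 and 41.7 in FL and 31.8 and 27.5 in C3+14. In C1C3a its libraries were far apart, at 2.21 and 28.3 (2 and 20 reads), and in C1C3b it had 1 and 3 reads. Obox7 was at 17.7 and 15.5 in FL, 15.1 and 13 in C3+14 and 8.86 and 18.4 in C1C3a, from 8 to 13 reads a library. It had 0 reads in C1C3b and 1 read in 1 library of C1C3c. FL exceeded mCherry at least 14-fold for Obox5 and at least 7.28-fold for Obox7.

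**Figure D3:**
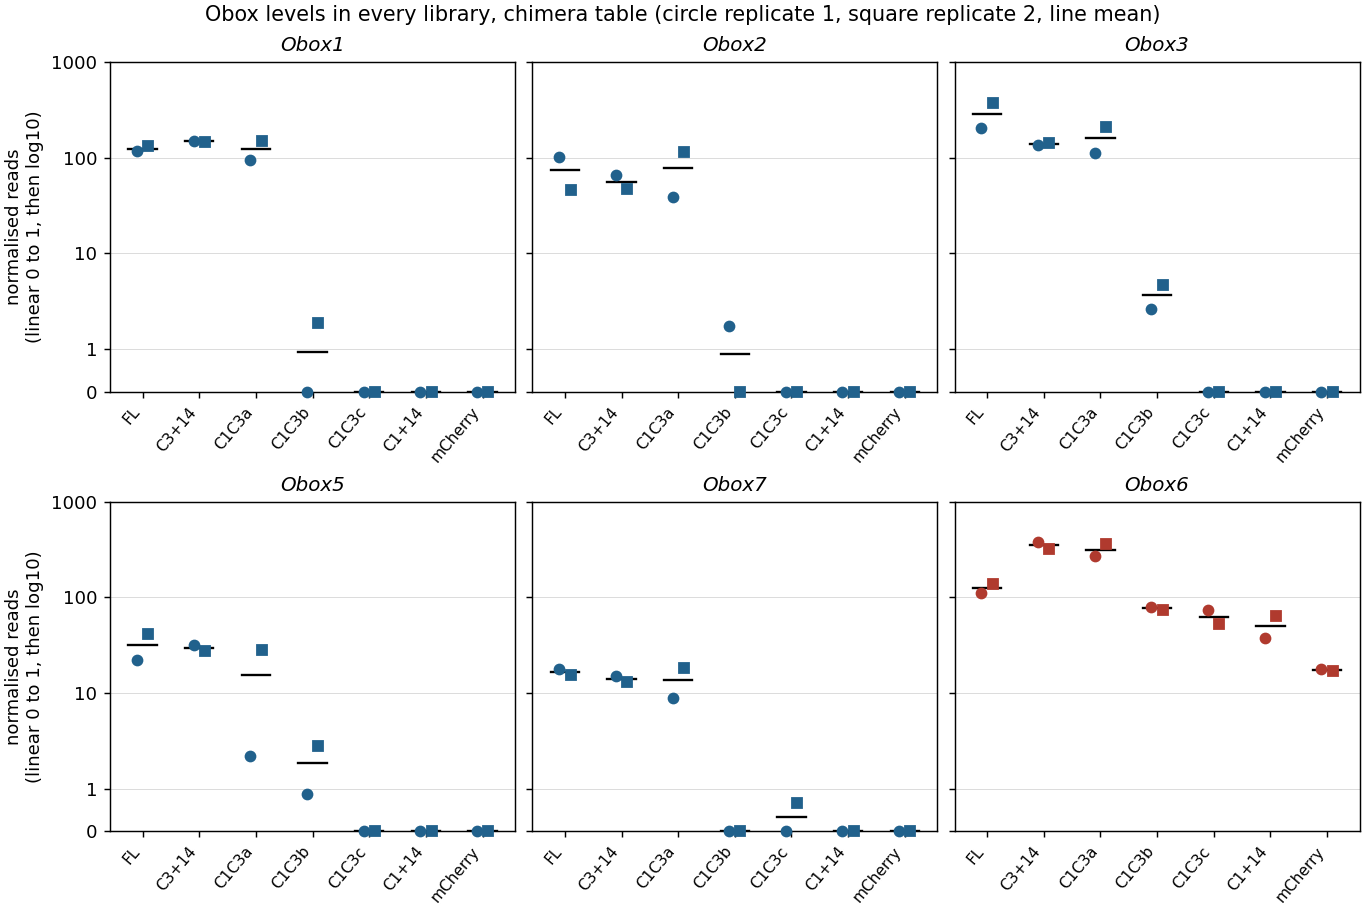
Normalised reads of each Obox gene in the 14 libraries of the chimera table, on an axis that is linear from 0 to 1 and logarithmic above, with both replicates and their mean. The panels of Obox1, Obox2, Obox3, Obox5 and Obox7 show FL, C3+14 and C1C3a high and the remaining groups at or near 0, whereas Obox6 has reads in every library and is highest in C3+14 and C1C3a.

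Obox6, the most divergent member in sequence, had reads in every library. It was at 111 and 137 in FL but at 380 and 322 in C3+14 and at 269 and 361 in C1C3a. It then stood at 79.8 and 74.2 in C1C3b, 73.1 and 52.8 in C1C3c and 38 and 63.3 in C1+14. Every construct's libraries lay above both mCherry libraries, 20.1-fold by the means in C3+14, 18-fold in C1C3a and 7.07-fold in FL. The ratio was 4.4 in C1C3b, 3.6 in C1C3c and 2.9 in C1+14. By the means the order was C3+14, C1C3a, FL, C1C3b, C1C3c, C1+14 and mCherry, in which C3+14 and C1C3a overlapped, as did C1C3c with C1+14. C1C3b lay just above C1C3c, 1.22-fold by the means, without being called (log2 fold change 0.30, limma adjusted p = 0.519). The log2 fold change against mCherry was 2.75 ± 0.30 in FL (limma adjusted p = 4.56e-06) and 1.44 ± 0.30 in C1+14 (limma adjusted p = 0.00314). The latter came to 0.99 with quantile normalisation, just under the fold threshold. Scaled to library totals, an alternative chosen after seeing the data, the log2 fold change of Obox6 against mCherry was 1.74 in FL, 2.0 in C1C3b, 1.98 in C1C3c and 1.67 in C1+14, all still called, so the place of FL above C1C3b and C1C3c depends on the scaling.

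All 6 were called higher than in mCherry for C3+14 (background 29.6% of genes) and for C1C3a (27.4%). For C1C3b, 2 members were called, Obox3 and Obox6, against 27.6% of genes. The call of Obox3 there rests on 8 reads, with a bound of at least 1.61-fold, and it was lost with a pseudocount of 8 (log2 fold change 0.54, limma adjusted p = 0.187) or quantile normalisation (1.11, limma adjusted p = 0.0802). Obox6 was the 1 member called for C1C3c (background 18.3%) and for C1+14 (12.4%). With groups at 0 set to the floor of 3 reads, the median over the 6 genes was 4.41 log2 units for FL, 4.48 for C3+14 and 4.63 for C1C3a. The median over all tested genes was 0.09, 0.23 and 0.12.

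The contrast was also present between libraries of 1 kind. FL and C1C3a, which have the higher share of high-copy genes, as C1+14 does, were each called higher than C1+14 for 6 of 6 members, against 21.5% and 23.4% of genes. Bounds for FL over C1+14 ran from at least 8.18-fold for Obox7 to at least 143-fold for Obox3, and Obox6 was 2.44-fold higher. The call of Obox6 for FL was lost when libraries were scaled to their totals (log2 fold change 0.07, limma adjusted p = 0.856), and that for C1C3a was not (1.52, limma adjusted p = 0.000957). C1C3b was called higher than C1+14 for 1 member, Obox3 (background 17.9%), from 3 and 5 reads and with a bound of at least 1.81-fold. Obox6 lay 1.52-fold above C1+14 by the means, without overlap and without being called. Within the other kind, C3+14 was at least 65.5-fold above mCherry for Obox1, 60.8-fold for Obox3 and 24.7-fold for Obox2.

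Of the 3 chimeras with a common name stem, C1C3a held Obox1, Obox2, Obox3, Obox6 and Obox7 higher than C1C3b and C1C3c. Obox6 had reads in all 3, and the other 5 genes were at or near 0 in C1C3b and C1C3c. All 6 members were called higher in C1C3a than in C1C3c (background 22.2%), Obox6 by 2.31 log2 units (limma adjusted p = 2.72e-05). Against FL, 5 members, all but Obox6, were called lower in C1C3b (background 19.7%) and the same 5 in C1C3c (22.8%). Both libraries of Obox6 in C1C3b, and both in C1C3c, lay below both FL libraries. For Obox6 the log2 fold change was -0.67 in C1C3b, with an adjusted p by limma of 0.0689, and with library totals it was 0.26. In C1C3c it was -0.97 (limma adjusted p = 0.0132), just under the fold threshold, and with library totals it was 0.24. C1C3b was called lower than C1C3a at 5 members (background 17.3%). Here Obox6 was among them (log2 fold change -2.0, limma adjusted p = 0.000110) and Obox5 was not (-1.86, limma adjusted p = 0.0758). The tests of FL and C1C3a against C1C3b share libraries, as do those against C1C3c, and are not separate evidence.

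Obox6 was higher in C3+14 and C1C3a than in FL, and the other 5 members were not called in either. C3+14 and FL differ in kind of library, so for that comparison the construct and the kind cannot be told apart. Against FL, 1 member was called in C3+14 (26.3% of genes called in either direction) and 1 in C1C3a (15.6%), in both cases Obox6. It was 1.5 ± 0.30 log2 units higher in C3+14 (95% interval 0.85 to 2.15, limma adjusted p = 0.00156) and 1.33 ± 0.30 in C1C3a (0.68 to 1.98, limma adjusted p = 0.00611). Without C1C3a replicate 2 the latter was 1.12, with a limma adjusted p of 0.0576. For the other 5 members the intervals were wide. That of Obox1 in C3+14 ran from -0.93 to 1.44 and that of Obox2 in C1C3a from -1.47 to 1.41, so neither shows that the levels were alike. Obox3 was lower in C3+14 by 1.00 log2 units without being called (-2.09 to 0.09), and Obox5 in C1C3a had -1.69 (-3.50 to 0.11). Without C1C3a replicate 2, which has most of its reads, Obox5 came to -3.29 and was called. Between C3+14 and C1C3a 0 of 6 members were called by limma (background 14.9%), by edgeR or by DESeq2, and 0 members had an unadjusted p under 0.05 by limma. Intervals of C3+14 over C1C3a were wide too, at -0.15 to 3.46 for Obox5 and -1.71 to 1.16 for Obox2. The 0 calls thus do not show that the levels were alike.

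Per kb of exon, which allows levels to be set between genes, the order in FL was Obox6 (92 ± 13.9 normalised reads per kb, SD, n = 2), Obox3 (90.9 ± 37.1), Obox1 (65.8 ± 5.31), Obox2 (45 ± 23.7), Obox5 (14.9 ± 6.48) and Obox7 (10.3 ± 0.973). Replicates of Obox6 and Obox3 overlapped on this scale, as did those of Obox3 with Obox1 and of Obox5 with Obox7. In C3+14 the order began with Obox6, at 261 ± 30.5 per kb, followed by Obox1 at 78.5 ± 1.27 and Obox3 at 43.3 ± 1.15. Obox1 thus stood above Obox3 in C3+14, at 79.4 and 77.6 against 42.5 and 44.2 per kb. The order in FL turns when levels are set per 1000 exon windows that no other gene shares, at 160 for Obox1, 129 for Obox2, 111 for Obox3 and 101 for Obox6, followed by 18 for Obox5 and 12.9 for Obox7. In C3+14 Obox6 came first on that scale too, at 286, before Obox1 at 191.

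The Obox pseudogenes held more reads than the coding genes in FL, C3+14, C1C3a, C1C3b and C12345delt14, but not in the remaining groups. They took 0.517% and 0.682% of all reads in FL, where the 6 coding genes together had 12.2 and 20 reads per 1000000. In C3+14 the pseudogenes took 0.00952% and 0.00965% of reads while the coding genes had 22.1 and 19.5 per 1000000. The part of misassigned pseudogene reads in the levels of the coding genes was not tested. The ranges of the coding genes in FL and C3+14 overlapped, and those of the pseudogenes did not. FL and C3+14 also differ in kind of library, so the construct and the kind cannot be told apart here.

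The deletion constructs were set against FL. In deltC12345+14 and deltC12345delt14, Obox1, Obox2, Obox3, Obox5 and Obox7 were at 0 in all 4 libraries, of both kinds. FL, on the scale of this table, had 254 and 468 normalised reads of Obox3, at least 169-fold above deltC12345+14 and at least 146-fold above deltC12345delt14. For Obox1 (145 and 165 in FL) the bounds were 72.8-fold and 62.7-fold, and for Obox7 (21.7 and 19.4) they were 9.65-fold and 8.31-fold. All 6 members were called lower than in FL in deltC12345+14 (background 20.0%) and in deltC12345delt14 (background 20.3%). In this table Obox5 and Obox7 passed the filter for testing only through FL, and Obox1, Obox2 and Obox3 only through FL and C12345delt14. These counts, and those of C12345delt14 below, are therefore descriptions. With groups at 0 set to the floor, the median over the members was 4.82 and 4.60 log2 units in favour of FL, and that over all genes 0.08 and 0.11.

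Obox6 kept RNA in both. It was at 136 and 171 in FL, 61.7 and 58.9 in deltC12345+14 and 44.3 and 39.8 in deltC12345delt14. Both groups lay below FL, with log2 fold changes of -1.33 ± 0.29 (limma adjusted p = 0.00694) and -1.84 ± 0.29 (limma adjusted p = 0.00162). The size factors bear on these differences, since FL libraries sum to 58.3 and 46.7 normalised reads in units of 1000000 and those of deltC12345+14 to 23 and 22. Scaled to library totals they were -0.12 and -0.68 and were not called. Each of these groups holds 1 library of each kind, and the replicates of Obox6 differed 1.05-fold in deltC12345+14 and 1.11-fold in deltC12345delt14.

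C12345delt14 gave an intermediate result. Obox3 stood at 28.6 and 41 and Obox1 at 25.1 and 22.1 normalised reads, 10.4-fold and 6.56-fold below FL by the means. Obox2 was at 24 and 17.2, Obox7 at 5.72 and 3.28 and Obox5 at 2.29 and 3.28 (2 and 4 reads). In each of these 5 genes both libraries lay below both FL libraries, whereas Obox6, at 165 and 181, overlapped with FL. limma called 2 members lower than in FL, Obox3 (log2 fold change -3.29 ± 0.54, adjusted p = 0.0452) and Obox5 (-3.37 ± 0.59, adjusted p = 0.0487), against 0.620% of the 19833 genes tested. The spread that limma shared over this table includes the difference between kinds of library within deltC12345+14 and within deltC12345delt14. Over all genes, 190 were called in either direction by limma, 467 by edgeR and 1293 by DESeq2. Obox1 (-2.66, limma adjusted p = 0.0553), Obox2 (-2.02, limma adjusted p = 0.0991) and Obox7 (-2.0, limma adjusted p = 0.0930) were not called. The count is unstable: 0 without C12345delt14 replicate 1, without its replicate 2 or without FL replicate 1, and 4 without FL replicate 2.

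The same 5 genes were above those constructs where they had no read. Against deltC12345delt14, 6 of 6 members were called higher in C12345delt14 (background 12.6%), with bounds of at least 14.1-fold for Obox3, 9.56-fold for Obox1, 8.33-fold for Obox2, 1.82-fold for Obox7 and 1.12-fold for Obox5. Obox6 was 4.11-fold higher. In this comparison edgeR called 5 members and DESeq2 called 4.

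Between deltC12345+14 and deltC12345delt14 limma called 0 of 6 members and 0 of all genes (0%). Only Obox6 had reads, and its log2 difference of 0.51 ± 0.29 had a 95% interval of -0.17 to 1.19 (limma adjusted p = 1.00). At an unadjusted p under 0.05 limma found 0 members and 543 genes, edgeR called 0 genes and DESeq2 called 4 genes, none of them a member. For the other 5 genes no difference was detectable, since both groups were at the floor. Each group holds 1 library of each kind, under crossed replicate numbers. The difference between kinds thus enters the spread that limma uses, so the 0 calls do not show that the constructs were alike.

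**Figure D4:**
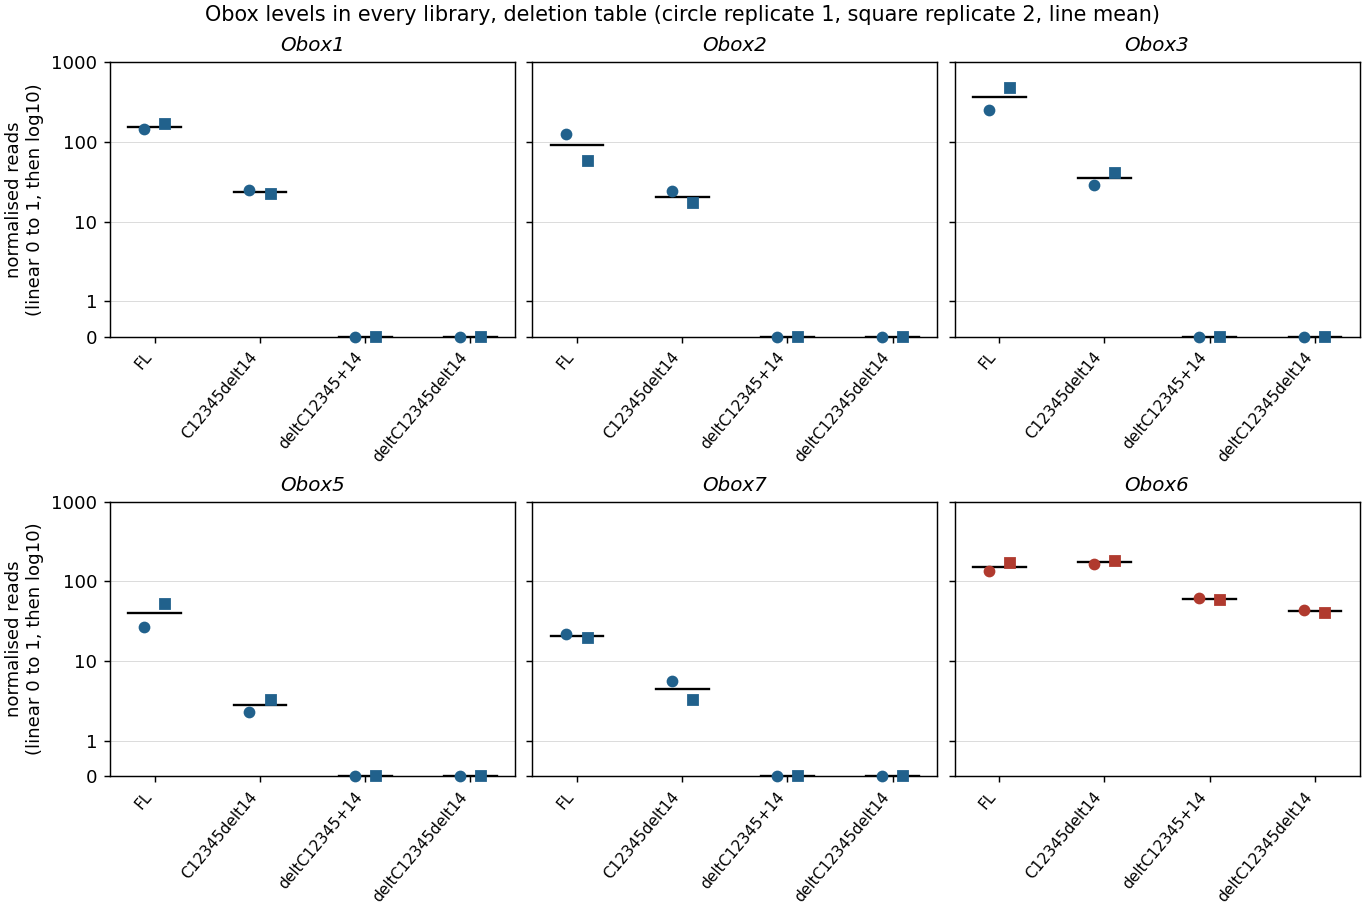
Normalised reads of each Obox gene in the 8 libraries of the deletion table, on an axis that is linear from 0 to 1 and logarithmic above, with both replicates and their mean. All but Obox6 step down from FL to C12345delt14 and have 0 reads in both deltC12345 groups, while Obox6 overlaps between FL and C12345delt14 and keeps reads in all libraries.

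**Figure D5:**
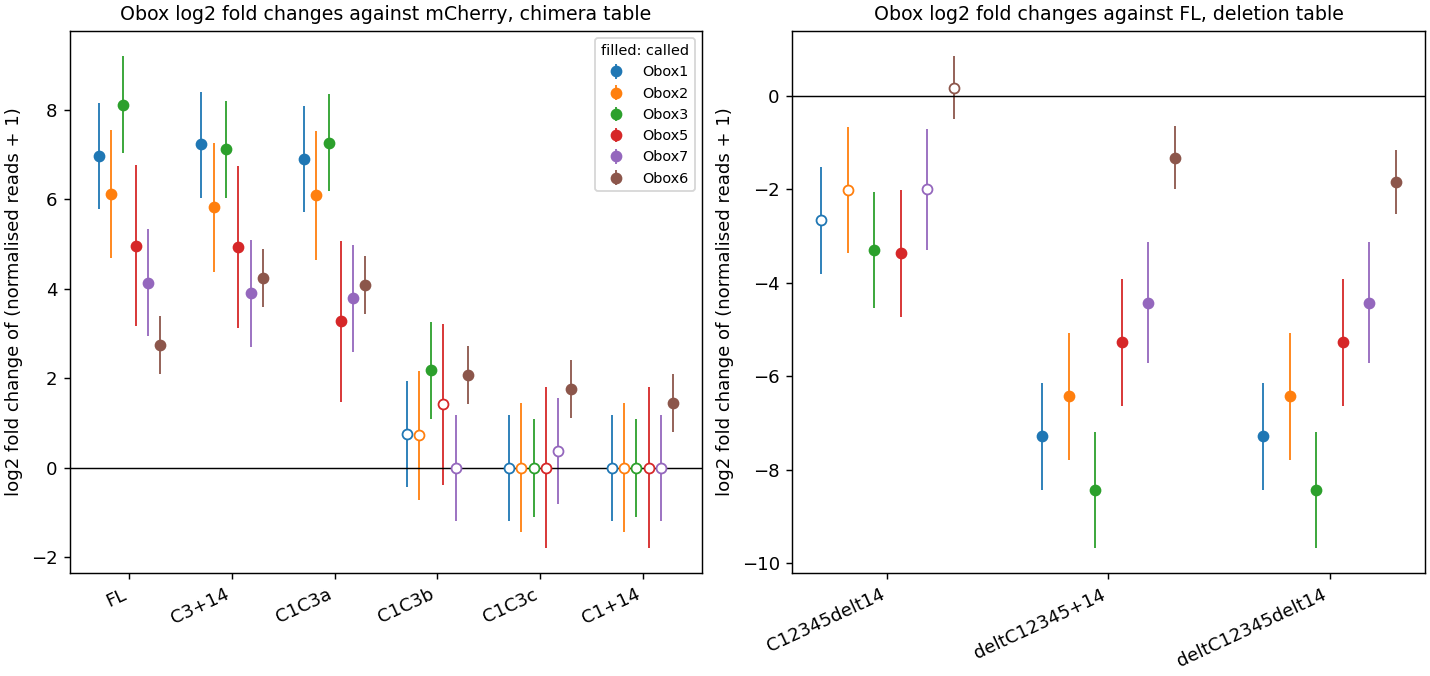
Log2 fold changes of the 6 Obox genes with 95% intervals from limma, against mCherry in the chimera table and against FL in the deletion table, with filled points for called genes. Values against groups at 0 reads depend on the added 1. All 6 points are filled for FL, C3+14 and C1C3a, and Obox6 alone is filled for C1C3c and C1+14.

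Other homeobox genes were called in both directions. Of 28 other homeobox genes that were listed, 23 were tested. Of these, 5 were called higher and 5 lower in FL than in mCherry, against 24.5% and 19.6% of all genes tested. Their median log2 fold change was 0.01, against 0.09 over all genes. The 3 called genes of largest change were Duxbl1, a double-homeobox relative of Dux (10.9 in mCherry, 2129.3 in FL, log2 fold change 7.49), Crx, a photoreceptor factor (0 in mCherry, 43.5 in FL), and Otx2, a factor of the epiblast and the anterior brain (55.6 in mCherry, 7.14 in FL, log2 fold change -3.85). Duxbl1, like the 5 Obox genes, was high in C3+14 (2239.5) and C1C3a (2660.3), and it was at 105 in C1C3b, 3.63 in C1+14 and 11.2 in C1C3c. The counts of other homeobox genes higher and lower than in mCherry were 7 and 3 for C3+14, 7 and 4 for C1C3a, 7 and 6 for C1C3b, 5 and 5 for C1C3c and 3 and 4 for C1+14.

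Within 1 Mb of the cluster lie 36 other coding genes, of which 24 were tested. In FL against mCherry 7 were called higher and 2 lower, against 24.5% and 19.6% of all genes tested. Their median log2 fold change was 0.37, against 0.09 over all genes. The largest changes were those of Crx, which is also a neighbour, of Bbc3, which codes for the pro-apoptotic protein PUMA (532 in mCherry, 47.7 in FL, log2 fold change -3.76), and of Vmn1r90, a vomeronasal receptor gene (4.78 and 22.4, log2 fold change 2.02). In C3+14, where all 6 Obox genes were also called higher, 2 neighbours were called higher and 3 lower than in mCherry. Over all genes tested these shares were 29.6% and 17.7%. In C1C3a 2 neighbours were called higher and 2 lower, against 27.4% and 19.0% of all genes tested.

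The genes whose levels were most like those of each member were found by Pearson's r of log2(value + 1) over the 14 chimera libraries, given as a description since all share the libraries. Obox1 was most like Vmn1r88 (r = 0.997), a vomeronasal receptor gene with 649 in FL and 0 in mCherry, followed by the pseudogene Gm37430 and ENSMUSG00000094799. Obox2 was most like Fundc1 (r = 0.994), a mitophagy receptor gene, then Gm6902 (0.993) and Tsta3 (0.992). Obox3 was most like Gm11756 (0.995), Gm13871 (0.994) and Gm11758 (0.994), which share 89.4% to 100% of their exon windows with other genes. Obox7 was most like Gm6909 (0.993), Gm9117 (0.992) and Gm9125 (0.992). For these 4 members 450 to 714 of 15839 genes had r of at least 0.95. Obox5 had 3 such genes, Dtnb (0.957), Gm47317 (0.95) and Gm12789 (0.95). Obox6 had 35, led by Plod1 (0.977), a collagen lysyl hydroxylase, Gm5117 (0.977) and Phgdh (0.974), an enzyme of serine synthesis. Plod1 stood at 184 in mCherry, 855 in FL, 1702.7 in C3+14 and 1805.9 in C1C3a.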

How the data were processed

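Per the labels' protocols, a stranded mRNA kit was used on 500 ng of total RNA. The deposited values are a signal, read counts per gene that the authors divided by 1 size factor per library, in 2 tables. All 776818 and 443896 values were whole multiples of 1 step per column (100%, tolerance 0.001), so reads were recovered. Trim Galore 0.5.0, FastQC, DESeq2 and mm10 are named in the submitters' processing notes. The aligner, counter, annotation and use of strand are not given in the sources used here. Of 55487 identifiers, 55141 (99.4%) had a symbol in GENCODE M21. All columns were used, and C3delt14 was not analysed here.

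limma 3.58.1 (R 4.3.3; lmFit, eBayes with trend) was fitted to log2(value + 1) over all groups of a table, on 21584 genes of the chimera table and 19833 of the deletion table with 10 or more normalised reads in 2 or more libraries. This left 7 and 4 residual degrees of freedom. Calls needed a Benjamini-Hochberg adjusted p under 0.05 over all genes tested and a log2 fold change of 1 or more in either direction. An exact permutation test of 2 against 2 cannot go below p = 0.333. Folds against groups at 0 were computed against 3 reads per library, a limit that covers counting error only. edgeR 4.0.16 and DESeq2 1.42.0 on recovered reads, other pseudocounts, filters and scalings, a replicate block and leaving out libraries were alternatives. Coding sequences were aligned with MAFFT 7.526 for the printed stretch, and in pairs by global alignment with Biopython for the percent identities. Replicates differed by more than sampling noise (chi-square per gene 2.61 to 53.2), so each counts as a library. The tests were tested on simulated counts. All members are named, with the 3 genes most like each (no Obox gene, a group mean of at least 50) and the 3 called genes of largest change in FL against mCherry per list. The members and lists were chosen with earlier results of these data known.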

Additional observations from a re-analysis of the deposited data

How the results depend on the processing

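Of 121 alternative values of the counts of members called, 104 stayed within 1.5 times the main count. Leaving out genes with at least 10% of shared sequence left Obox6 as the only member tested, so the count was 1 for FL, C3+14, C1C3a and C1C3b against mCherry and for deltC12345+14 and deltC12345delt14 against FL, and 0 for C12345delt14 against FL. For C1C3b against mCherry it was 1 with a pseudocount of 8, with quantile normalisation and with only the 2 groups fitted, which left Obox6 alone tested. For C1+14 against mCherry it was 0 with quantile normalisation. For C3+14 against FL it was 2 with only those groups fitted, Obox3 (-1.0) being added. For C12345delt14 against FL the count was 5 with a pseudocount of 8 and 0 with a pseudocount of 0.1, without a filter, with library totals and with the replicate block, and it ran from 0 to 4 when 1 library was left out. There edgeR called Obox1 and Obox3, not Obox5. The causes were not tested.

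Replicate numbers do not pair the libraries: deviations of same-numbered libraries correlated at -0.1 to 0.05 in the chimera table and -0.57 to 0.14 in the deletion table. The replicate block left the other 11 counts as they were. With the numbers crossed between deltC12345+14 and deltC12345delt14, an alternative chosen after seeing the data, the count was 0. Scaling to library totals, also chosen after seeing the data, moved the median of all genes from 0.09 to -0.87 for FL against mCherry and from -0.08 to 1.11 for deltC12345+14 against FL.

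Small uncalled differences changed sign. In C3+14 against FL, library totals gave 0.19 for Obox5 and 0.00 for Obox7, and leaving out 1 library gave -0.48 to 0.41 for Obox5 and -0.86 to 0.25 for Obox2. In C1C3a against FL, Obox2 came to 0.08 with edgeR, 0.06 with DESeq2 and 0.08 with library totals, and Obox1 to 0.05 with library totals. With 1 library left out, Obox1 ran from -0.39 to 0.26, Obox2 from -0.81 to 0.75 and Obox7 from -0.83 to 0.15. Depth limits Obox5 and Obox7, which had at most 35 and 13 reads in a library.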
